A study of Mus musculus with 9 samples.

Results

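The carnitine shuttle and its control by malonyl-CoA were examined through 8 genes: the carnitine transporter gene Slc22a5, the carnitine synthesis gene Bbox1, the carnitine palmitoyltransferase genes Cpt1a, Cpt1b and Cpt2, the acetyl-CoA carboxylase genes Acaca and Acacb, and the malonyl-CoA decarboxylase gene Mlycd. A gene was measured by each probe set that the platform annotation gives to its symbol and to no other symbol. This found 14 probe sets for 7 of the 8 genes, among 45037 probe sets and 18193 genes in all. Cpt1b has no probe set of its own and was not analysed here as a gene. Left ventricles of male C57BL/6 mice were profiled on Affymetrix arrays 6 weeks after transaortic constriction (TAC, 4 arrays), which narrows the aorta and loads the ventricle with pressure, or after sham surgery (5 arrays). The labels name no transgene, drug or age, and list each array as a sample without saying in so many words that each came from its own mouse, so what the p-values weigh is the spread from array to array. Values are RMA values on a log2 scale, where 1 unit is a doubling, and levels of different probe sets are not comparable with each other. Differences are TAC minus sham on that scale, with their standard error (SE) from limma, and p-values were adjusted by the Benjamini-Hochberg method over all genes, or over all probe sets where a probe set is named. A gene was called at an adjusted p below 0.05.

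Long-chain fatty acids, the main fuel of the adult heart, enter mitochondria bound to carnitine. Carnitine is made from trimethyllysine, mostly outside the heart, and is taken up by the transporter that Slc22a5 encodes. CPT1 in the outer mitochondrial membrane moves the fatty acyl group from coenzyme A to carnitine, a translocase carries acylcarnitine across the inner membrane, and CPT2 moves the acyl group back to coenzyme A. CPT1 is inhibited by malonyl-CoA, which acetyl-CoA carboxylase makes and malonyl-CoA decarboxylase removes. CPT1A is the liver isoform and CPT1B the muscle isoform. ACC1, from Acaca, lies in the cytosol and feeds fatty acid synthesis, while ACC2, from Acacb, sits at the mitochondrial outer membrane.

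In the TAC ventricles 4 of the 7 measured genes fell: Mlycd by 0.78, Cpt2 by 0.70, Slc22a5 by 0.50 and Acacb by 0.49. By limma 0 of the 7 rose, 0 were higher at an unadjusted p below 0.05, and 0 rose in a robust limma fit with a variance trend. Over all genes tested 12.3% were called lower, 12.8% higher and 25.1% in either direction. Centring the arrays on their medians over the 18193 tested genes, which ran from 7.53 to 7.70, changed the share of higher genes among all calls from 51.1% to 40.5%, and each of the 7 members kept its direction. The median difference of the 7 genes was -0.49, against 0.00 over all genes. Cpt1a, Acaca and Bbox1 were not called. The arrays measure whole tissue, in which fewer cells of a type and less RNA per cell cannot be told apart.

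The 4 genes that fell are shown here by the 250 bases before their transcription start, from RefSeq on GRCm38.p6. Whether they share promoter control was not tested. Each runs 5′ to 3′ on the strand of its gene, and capitals mark matches on either strand to 3 common promoter motifs, GGGCGG (the GC box), CCAAT and TATAAA.
Slc22a5 (chr11:53891704-53891953, minus strand): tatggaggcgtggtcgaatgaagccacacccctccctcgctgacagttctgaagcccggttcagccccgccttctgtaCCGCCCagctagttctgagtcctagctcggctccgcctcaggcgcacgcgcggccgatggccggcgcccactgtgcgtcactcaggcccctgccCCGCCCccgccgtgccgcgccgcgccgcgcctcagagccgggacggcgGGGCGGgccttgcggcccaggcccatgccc
Cpt2 (chr4:107923590-107923839, minus strand): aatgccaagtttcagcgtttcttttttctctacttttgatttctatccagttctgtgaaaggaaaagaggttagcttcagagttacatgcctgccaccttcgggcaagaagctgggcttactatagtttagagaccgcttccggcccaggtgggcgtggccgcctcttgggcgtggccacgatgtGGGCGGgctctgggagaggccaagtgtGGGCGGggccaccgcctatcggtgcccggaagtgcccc
Acacb (chr5:114165268-114165517, plus strand): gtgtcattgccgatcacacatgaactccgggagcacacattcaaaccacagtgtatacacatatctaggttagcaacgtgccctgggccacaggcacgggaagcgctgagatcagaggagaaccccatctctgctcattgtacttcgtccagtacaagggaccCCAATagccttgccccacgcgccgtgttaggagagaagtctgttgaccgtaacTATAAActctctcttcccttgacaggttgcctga
Mlycd (chr8:119394644-119394893, plus strand): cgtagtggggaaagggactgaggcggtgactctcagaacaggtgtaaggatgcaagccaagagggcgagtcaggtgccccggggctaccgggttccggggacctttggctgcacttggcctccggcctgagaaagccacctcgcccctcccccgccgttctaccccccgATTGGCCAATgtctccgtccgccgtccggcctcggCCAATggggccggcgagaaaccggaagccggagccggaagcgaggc
All 7 measured genes had an entry in the promoter table. GGGCGG was found before Slc22a5, Cpt2 and Cpt1a, and in 32.7% of the 32851 promoters of the same length. CCAAT was found before Mlycd, Acacb and Cpt1a, and in 33.8% of all promoters. Before Mlycd it occurred 3 times, and there a match on the minus strand directly adjoins one on the plus strand. TATAAA was found before Acacb and Bbox1, and in 12.4%. The half-site of nuclear receptors such as the PPARs, AGGTCA, matched before Cpt1a only, among the 7, and in 14% of all promoters. The DR1 element, a repeat of that half-site with 1 free base between (0.0335% of all promoters), the ERR site TCAAGGTCA (0.387%) and the E-box CACGTG (6.02%) matched before 0 of the 7 genes. DR1 and the ERR site contain AGGTCA. A missing match says only that these letters are not in this window.

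For carnitine supply, the genes of its transporter and of the last enzyme of its synthesis were read, and carnitine itself was not measured. Slc22a5, which encodes the sodium-dependent carnitine transporter OCTN2, read 9.09, 9.27, 9.08, 9.09 and 8.83 on the sham arrays and 8.65, 8.63, 8.56 and 8.46 on the TAC arrays. Every TAC value was below every sham value, with sham replicate 5 nearest to the TAC range. The means were 9.07 ± 0.16 (SD, n = 5) and 8.58 ± 0.08 (SD, n = 4), a difference of -0.50 (SE 0.09, limma adjusted p = 0.00247), which leaves 70.9% of the sham signal. The other probe set of Slc22a5 was dim, at 4.83 in sham and 4.46 in TAC, and its difference of -0.37 did not pass over all probe sets (limma adjusted p = 0.103).

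Bbox1 encodes gamma-butyrobetaine dioxygenase, which makes carnitine in liver and kidney. Its brighter probe set read 4.89, 4.39, 4.72, 4.72 and 4.95 in sham and 4.91, 5.02, 4.75 and 4.55 in TAC. The groups overlapped, with a difference of 0.07 (95% confidence interval -0.21 to 0.36, limma adjusted p = 0.744). Without sham replicate 2, the lowest array, it was -0.014. This probe set was brighter than 22.1% of all probe sets and the other one than 1.80%, so both lay where the signal is faint. The table holds no detection calls, and at such signals a small change may not be seen.

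Of the transferases of the shuttle, Cpt2 fell and Cpt1a was not called. Cpt2, the inner-membrane enzyme, read 12.83, 12.68, 12.76, 12.87 and 12.96 in sham and 12.03, 12.04, 12.07 and 12.32 in TAC. All 4 TAC arrays lay below the sham range, and TAC replicate 4 stood above the other 3. The means were 12.82 ± 0.10 (SD, n = 5) and 12.11 ± 0.14 (SD, n = 4), and the fall of 0.70 (SE 0.08, limma adjusted p = 0.000201) leaves 61.4% of the sham signal. A second, faint probe set, at 4.43 in sham, differed by -0.22 and did not pass (limma adjusted p = 0.365 over all probe sets). With the mean of both, Cpt2 differed by -0.46 and still passed (limma adjusted p = 0.00639).

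Cpt1a was represented by 3 probe sets, with differences of either sign and 0 of them called. The brightest by its mean over the 9 arrays read 8.87, 9.16, 9.17, 8.95 and 9.01 in sham and 9.22, 9.15, 9.25 and 9.14 in TAC. Its TAC values lay at the top of the sham range, overlapping with sham replicates 2 and 3, with a difference of 0.16 (95% confidence interval -0.02 to 0.33, limma adjusted p = 0.181). A second probe set differed by 0.15. The third read 9.03, 9.17, 8.99, 9.10 and 8.89 in sham and 8.81, 8.94, 9.01 and 8.86 in TAC, a difference of -0.13 (limma adjusted p = 0.310 over all probe sets). The brightest minus the third probe set, a pair formed after these values were seen and given as a description, was -0.16 to 0.19 on the sham arrays and 0.21 to 0.41 on the TAC arrays. The mean of the 3 differed by 0.06 (limma adjusted p = 0.592). The probe sets that were higher carry the _x_at suffix, by which the array maker marks probes that can match other transcripts. No direction is given for Cpt1a.

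A further probe set is annotated to Cpt1b, Chkb and Gm44502 together, so its signal cannot be given to any of these and stands outside all counts. It read 11.82, 11.64, 11.66, 11.87 and 11.82 in sham and 11.44, 11.21, 11.21 and 11.45 in TAC. Its difference was -0.43 (SE 0.09, limma adjusted p = 0.00602 over all probe sets), and the groups did not overlap.

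**Figure D1:**
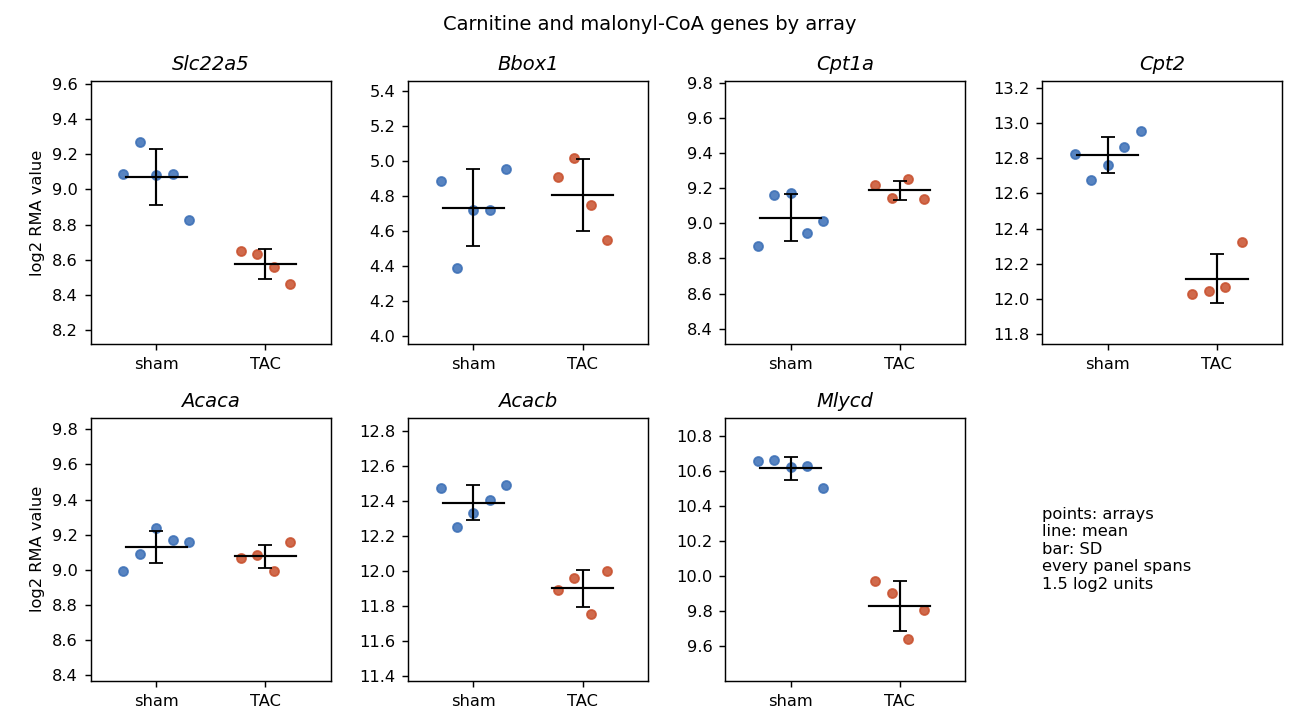
Log2 RMA values of the 7 measured genes at their brightest probe set, 1 point per array, for 5 sham (blue) and 4 TAC (orange) arrays. Lines are means and bars SD, and each panel spans the same log2 range. The TAC arrays lie below the sham arrays for Slc22a5, Cpt2, Acacb and Mlycd, and overlap with them for Bbox1, Cpt1a and Acaca.

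Of the genes for making and for removing malonyl-CoA, Acacb and Mlycd fell and Acaca was not called. Mlycd, whose product removes malonyl-CoA, had 1 probe set. It read 10.65, 10.66, 10.62, 10.62 and 10.50 in sham and 9.97, 9.90, 9.64 and 9.80 in TAC. The groups were far apart, with a sham mean of 10.61 ± 0.06 (SD, n = 5) and a TAC mean of 9.83 ± 0.14 (SD, n = 4). The fall of 0.78 (SE 0.08, limma adjusted p = 5.98e-05) leaves 58.1% of the sham signal. Without any 1 array it stayed between 0.72 and 0.83 in size, at adjusted p-values up to 0.000334.

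Acacb, for the mitochondrial carboxylase that makes malonyl-CoA near CPT1, read 12.47, 12.25, 12.33, 12.41 and 12.49 in sham and 11.89, 11.96, 11.76 and 12.00 in TAC. Again the TAC arrays were all lower. The means were 12.39 ± 0.10 (SD, n = 5) and 11.90 ± 0.11 (SD, n = 4), and the fall of 0.49 (SE 0.08, limma adjusted p = 0.00107) leaves 71.3% of the sham signal. Its other probe set was faint, at 4.61 in sham, and differed by -0.03 (limma adjusted p = 0.886 over all probe sets). With the mean of both, Acacb differed by -0.26 and still passed (limma adjusted p = 0.0163).

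Acaca, for the cytosolic carboxylase, read 8.99, 9.09, 9.24, 9.17 and 9.16 in sham and 9.07, 9.08, 8.99 and 9.16 in TAC. The groups overlapped, with a difference of -0.05 (95% confidence interval -0.21 to 0.10, limma adjusted p = 0.624). Its dimmer probe set differed by -0.20 and did not pass (limma adjusted p = 0.296 over all probe sets).

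**Figure D2:**
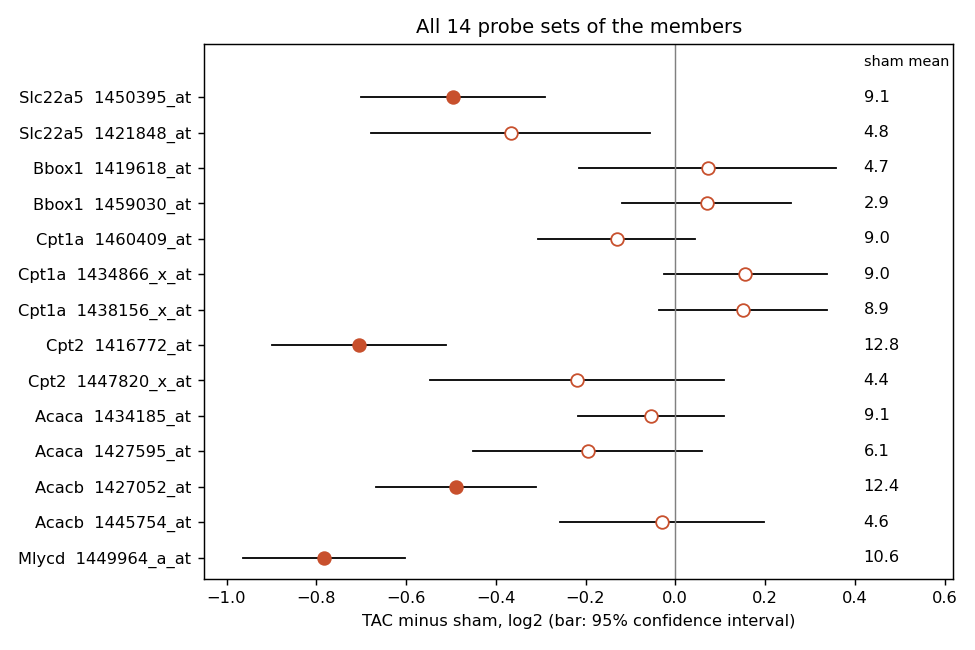
Difference of TAC minus sham (log2) with its 95% confidence interval for each of the 14 probe sets, with the mean of the sham arrays at the right. Filled points passed an adjusted p below 0.05 over all probe sets. The 4 that passed are the brighter probe sets of Slc22a5, Cpt2 and Acacb and the single one of Mlycd, and the faint probe sets of the same genes lie nearer to 0.

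At the level of probe sets 4 of the 14 were called lower and 0 higher in limma, where 8.86% and 8.87% of all probe sets were called, 17.7% together. Higher at an unadjusted p below 0.05 were 0 of the 14, and 0 were called higher by the robust fit. The groups did not overlap in 4 of 7 genes, against 25.2% of all genes, and in 4 of 14 probe sets, against 19.8% of all probe sets.

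For 2 planned pairs, whether members changed unequally was tested on their difference within each array, by exact permutation of the group labels (126 arrangements), where the smallest possible p is 0.00794. Acaca minus Acacb rose by 0.43 (95% interval 0.25 to 0.63, two-sided exact permutation p = 0.00794, adjusted p = 0.0198 over the 5 pairs computed). It was -3.48 to -3.09 on the sham arrays and -2.87 to -2.76 on the TAC arrays, so Acacb fell relative to Acaca on all 4 TAC arrays. With the mean of each gene's probe sets the rise was 0.13 (adjusted p = 0.143). Acacb minus Mlycd rose by 0.29 (95% interval 0.09 to 0.50, exact permutation p = 0.0238, adjusted p = 0.0298), so Mlycd fell more than Acacb. The groups overlapped there, at 1.59 to 1.99 in sham and 1.92 to 2.19 in TAC, and leaving out 1 array ended the call for 7 of the 9 arrays (sham replicates 1 to 4, TAC replicates 2 to 4). The highest adjusted p was 0.0893, for TAC replicate 3 or 4. With 1 array fewer there are fewer arrangements, so the smallest possible p is larger. The call held only without sham replicate 5 or TAC replicate 1, whose values overlap. How far the fewer arrangements account for the lost calls was not tested. Acaca minus Acacb stayed called in all 9 cases, at adjusted p-values up to 0.0476 by the same exact permutation test. The difference of Acacb minus Mlycd stayed between 0.25 and 0.35. With the mean of probe sets the rise was 0.52 (adjusted p = 0.0265), with Acacb at -0.26 and Mlycd, which has 1 probe set, at -0.78.

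The remaining pairs were formed after the values were seen and are given as descriptions. Cpt1a minus Cpt2, at their brightest probe sets, was -3.96 to -3.52 in sham and -3.18 to -2.81 in TAC, a difference of 0.86 between the group means, or 0.52 with the mean of probe sets. Mlycd minus Cpt2 was -2.45 to -2.02 in sham and -2.52 to -2.06 in TAC, a difference of -0.08 between the means, or -0.32 with the mean of probe sets.

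**Figure D3:**
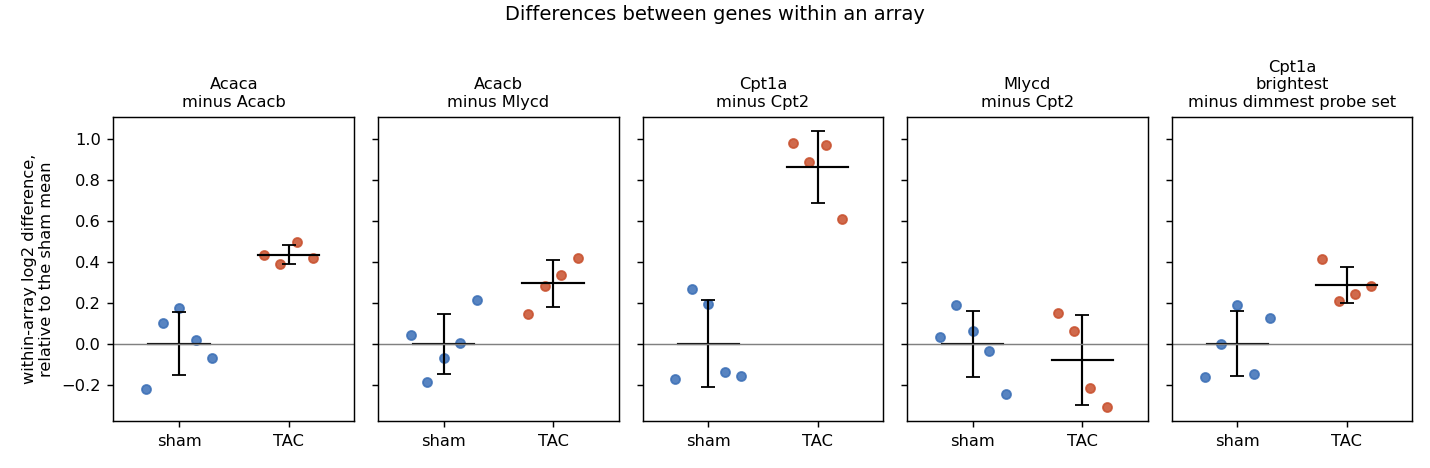
Log2 difference of 2 genes, or of 2 Cpt1a probe sets, within each array, drawn relative to the sham mean, with 5 sham (blue) and 4 TAC (orange) arrays, means (lines) and SD (bars). TAC arrays lie apart from sham arrays for Acaca minus Acacb, for Cpt1a minus Cpt2 and for the Cpt1a probe sets, and overlap with them for the other pairs.

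The other genes of carnitine handling went in both directions. Of 10 measured, 2 rose and 4 fell, with a median of -0.22. Slc22a4, whose product OCTN1 is related to the carnitine transporter and carries ergothioneine, rose by 1.86 (SE 0.23, limma adjusted p = 0.000250), opposite to Slc22a5. It read 7.19, 6.86, 7.13, 7.21 and 7.40 in sham and 9.08, 8.53, 9.80 and 8.66 in TAC, so the groups were well apart. Cpt1c, the CPT1 isoform of neurons, rose by 0.78 from a mean of 7.07 (limma adjusted p = 0.00307).

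Among those that fell, Aldh9a1, for an aldehyde dehydrogenase of carnitine synthesis, fell by 0.88 (SE 0.07, limma adjusted p = 2.14e-05), and its other probe set by 0.75. Crat, for the carnitine acetyltransferase that buffers acetyl-CoA, fell by 0.77 (SE 0.09, limma adjusted p = 0.000185), and its other probe sets fell by 0.68 and 0.66. Slc25a20, for the acylcarnitine translocase between CPT1 and CPT2, fell by 0.21 (limma adjusted p = 0.0288) at a probe set with a sham mean of 13.36. Its dimmer probe set, at 12.00 in sham, fell by 0.52 (limma adjusted p = 0.000338 over all probe sets). Slc16a9, a monocarboxylate transporter family gene linked to carnitine export, fell by 0.61 (limma adjusted p = 0.0471). A dimmer probe set of Slc16a9 fell by 0.55 (limma adjusted p = 0.00761 over all probe sets), and a faint one differed by -0.16 (0.680). For Slc25a20 and for Slc16a9 the call ended on leaving out 1 array in 6 of 9 cases, and the highest adjusted p-values were 0.0784 and 0.139, both for TAC replicate 3. The count of lower genes was 2 without sham replicate 3 or TAC replicate 1, 3 or 4. Tmlhe, for the first enzyme of carnitine synthesis, differed by -0.32 (limma adjusted p = 0.0618) and Crot, for the peroxisomal octanoyltransferase, by 0.02. The related transporter genes Slc22a21, at -0.23 (0.495), and Slc22a16, at 0.04 (0.930), did not pass either.

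Of 10 other genes that make, use or regulate malonyl-CoA and cytosolic acetyl-CoA, 1 rose and 5 fell, with a median of -0.19. Thrsp and Mid1ip1, for a pair of related proteins of which the second promotes the assembly of acetyl-CoA carboxylase, fell by 0.48 (limma adjusted p = 0.0120) and 0.25 (0.0175). Acsf3, for the malonyl-CoA synthetase of mitochondria, fell by 0.42 (0.0112), Mcat by 0.27 (0.0385) and the mitochondrial sirtuin gene Sirt4 by 0.26 (0.0486). The citrate carrier gene Slc25a1 rose by 0.35 (limma adjusted p = 0.00866). Fasn, for fatty acid synthase, differed by 0.09 (0.454) and Acly, for ATP citrate lyase, by -0.10 (0.268). The acetyl-CoA synthetase gene Acss2, at 0.08 (0.386), and Dbi, for an acyl-CoA binding protein, at -0.13 (0.158), did not pass. A dimmer probe set of Dbi fell by 0.34 (limma adjusted p = 0.00583 over all probe sets). The remaining probe sets of Dbi differed by -0.17 each and did not pass (0.108 and 0.0808). Nor did the dimmer ones of Thrsp, at -0.29 (0.100) and -0.10 (0.556). For Mcat and for Sirt4 the call ended in 7 of 9 such cases, at adjusted p-values up to 0.118 and 0.139, and for Mid1ip1 without TAC replicate 2 (0.0558). The count of lower genes was 2 without TAC replicate 2, and 3 without sham replicate 1, 3, 4 or 5 or TAC replicate 3.

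AMP-activated protein kinase (AMPK) phosphorylates and inhibits acetyl-CoA carboxylase, and of its 7 subunit genes 2 rose and 2 fell. The regulatory subunit genes Prkab2 and Prkag2 rose by 0.77 (limma adjusted p = 0.000606) and 0.55 (0.00656), while their paralogs Prkab1 and Prkag1 fell by 0.61 (0.000921) and 0.46 (0.00109). The catalytic subunit genes Prkaa1, at 0.22 (0.0839), and Prkaa2, at -0.02 (0.888), did not pass. A dimmer probe set of Prkaa2 fell by 0.33 (limma adjusted p = 0.0284 over all probe sets). The dimmer ones of Prkab1 and Prkag1 differed by -0.44 (0.113) and -0.28 (0.0557) and did not pass. Those of Prkab2 and Prkag2 were called higher, except a faint one of Prkag2.

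The steps before and after the shuttle were compared as lists. Of 15 enzymes of mitochondrial beta-oxidation 13 fell and 0 rose in limma, with a median of -0.40. Higher at an unadjusted p below 0.05 were 0 of them, and 0 rose in the robust fit. The isomerase gene Eci1 fell by 0.83 (limma adjusted p = 2.14e-05), the thiolase gene Acaa2 by 0.81 (4.51e-05), Hadha, for a subunit of the trifunctional protein, by 0.68 (0.000344) and Eci2 by 0.40 (0.000590). Of 10 measured genes of fatty acid uptake and activation 3 fell, the fatty acid transporter genes Slc27a1 (-1.11, limma adjusted p = 0.000457) and Cd36 (-0.28, 0.00771) and the acyl-CoA synthetase gene Acsl6 (-0.62, 0.000274). In limma 0 of these 10 rose, against 1 at an unadjusted p below 0.05 and 1 in the robust fit. The list median was -0.02. Of these genes Fabp3, Lpl and Fabp4 were read near the top of the scale, with sham means of 14.61, 14.26 and 13.79. A dimmer probe set of Fabp4 fell by 0.83 (limma adjusted p = 0.00471 over all probe sets), and that of Lpl differed by -0.19 (0.0895). The other dimmer ones of Fabp3 and Fabp4 were not called, and a dimmer one of Acsl4 rose by 0.33 (0.0343). Acsl1 was listed but not measured. Of 12 PPAR, ERR and PGC-1 regulators, transcription factors and coactivators known to activate genes of fatty acid oxidation, 5 fell, with a median of -0.33. These were Ppara (-1.10), Rxrg (-0.90), Ppargc1a (-0.85), Rxra (-0.54) and Esrra (-0.49), at limma adjusted p-values of 1.16e-05 to 0.000372. In limma 0 of the 12 rose, with 0 at an unadjusted p below 0.05 and 0 in the robust fit.

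**Figure D4:**
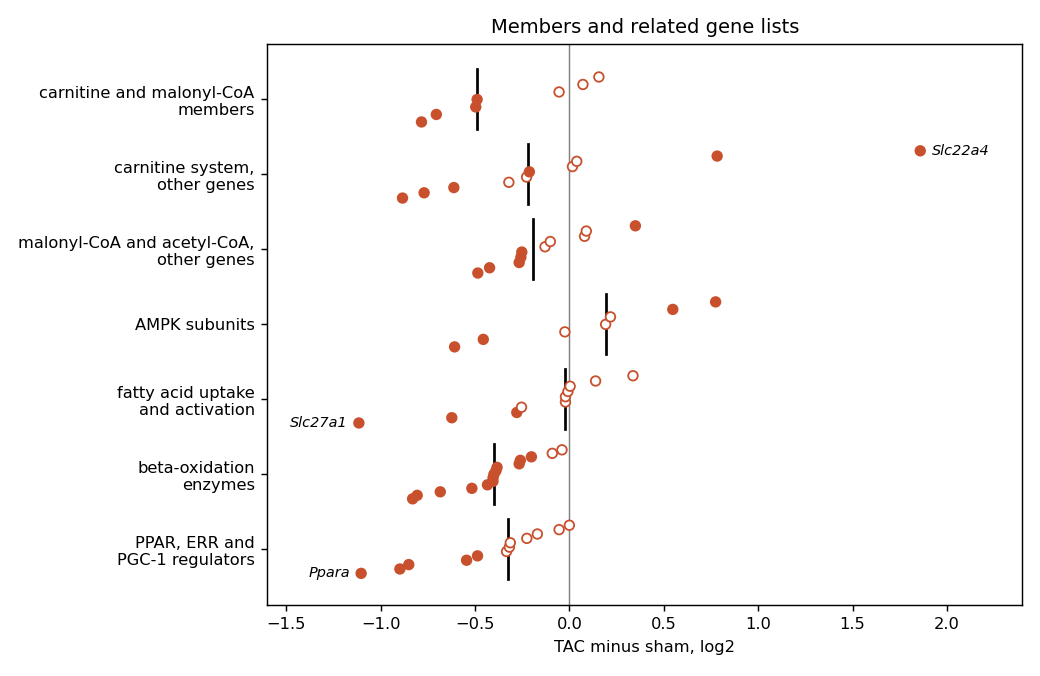
Difference of TAC minus sham (log2) for each gene of the members and of 6 related lists. Filled points passed an adjusted p below 0.05, black bars are list medians and genes beyond 1 log2 unit are named. The list medians are -0.49 for the members, -0.40 for beta-oxidation, -0.22 for the other carnitine genes and 0.19 for AMPK. Genes of the members, carnitine and AMPK lists lie on either side of 0, and all beta-oxidation genes lie below it.

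The genes whose profile over the 9 arrays was nearest to each gene that fell were found by the root-mean-square difference of values centred on each gene's mean. They were Mrps35 (0.04), Vwa8 (0.06) and Serac1 (0.06) for Cpt2, and Ttc7, Acot2 and Tfdp2 (0.06 to 0.07) for Mlycd. For Acacb they were Fastk, Clpp and Cdan1 (0.03 to 0.04), and for Slc22a5 Fastkd1, Fbxo21 and Dcun1d2 (0.05 to 0.06). This distance includes the step from sham to TAC, so genes with a fall of similar size come near. Mrps35, for example, differed by -0.71 and Cpt2 by -0.70. Whether these genes share control was not tested.

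Markers of cell types were read beside these results. Of 8 fibroblast markers 7 rose, and their summed signal was 14.22 to 14.52 on the sham arrays and 15.27 to 15.54 on the TAC arrays. Of 7 macrophage markers 5 rose, with 12.83 to 13.15 in sham and 13.42 to 13.61 in TAC. Cd163 went the other way, at -0.40 (limma adjusted p = 0.0564), and was the 1 macrophage marker called lower in the robust fit. Of 10 cardiomyocyte markers, which mark the labelled tissue, 1 fell, with 17.62 to 17.66 in sham and 17.59 to 17.61 in TAC. However, 7 of these 10 averaged above 14, near the top of the scale at 14.80. A dimmer probe set of Tnnt2 fell by 1.40 and one of Ryr2 by 0.69 (limma adjusted p = 0.000376 and 0.0153 over all probe sets). Dimmer ones of Myh6 and Pln fell by 0.50 (0.00828) and 0.21 (0.0374). One of Myom2 rose by 0.25 (0.0309), and the remaining dimmer probe sets of these markers were not called. Endothelial markers summed to 13.21 to 13.49 and 13.21 to 13.37, with 1 of 7 higher and 1 lower, and smooth muscle and pericyte markers to 13.50 to 13.68 and 13.54 to 13.60, with 2 of 6 higher and 1 lower. The 5 adipocyte markers read 3.38 to 5.75 on all arrays, and 3 red blood cell markers summed to 8.51 to 9.04 and 8.34 to 8.62. Of the last 2 lists 0 genes passed in limma or in the robust fit, and 1 in each was lower at an unadjusted p below 0.05. The part of fibroblast and macrophage RNA in the falls of Mlycd, Cpt2, Slc22a5 and Acacb was not tested.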

How the data were processed

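The authors deposited log2 values, and per the submitters' processing notes these are RMA values (version unstated). RMA corrects background, brings arrays to a common distribution and summarises each probe set, so a general change of RNA per cell does not show. The values ran from 2.25 to 14.80, and over all probe sets each array had a median of 6.57. The software and any genome build: not given in the sources used here. By the platform annotation 34945 probe sets had 1 symbol, 932 had several and 9160 were not listed, and 64 controls were left out. A gene was read at its brightest probe set by the mean of 9 arrays, with no filter on dim genes.

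TAC and sham arrays were fitted in R 4.3.3 by limma 3.58.1 (default lmFit and eBayes, no covariate, two-sided, 7 residual and 3.27 prior degrees of freedom), tested on simulated data. The number of arrays limits the precision. Pairs were compared by exact permutation, with 95% intervals by inversion of that test. Of 6 pairs planned, 4 used Cpt1b and were not run, and 3 were added after seeing the data and are given without a test. Named were all members, all genes of the carnitine and malonyl-CoA lists, up to 4 called genes of each other list by the smallest p, and 3 nearest profiles, without predicted genes or clones. The probe set shared by Cpt1b, Ppargc1a, the catalytic AMPK genes and the shown promoter motifs were added after values were seen. So were the marker genes named singly, and Acsl1, Acsl4, Fabp3, Fabp4 and Lpl. The members and lists were chosen with earlier results of these data known. Summed marker signals are log2 of the sum of linear values. Alternatives were another probe set rule (mean, or brightest below 13), a dim filter, array weights, a trend with robust fitting, cyclic loess, setting each array to its median over the tested genes, an adjusted p below 0.01, limma's treat against 1.2-fold, and leaving out each array. Figures were made in Python 3.11.15 with matplotlib 3.10.9 and pandas 2.3.3.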

Additional observations from a re-analysis of the deposited data

Results flagged for a closer look

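In 2 of the 108 groups of values examined, 1 array stood far from the rest of its group, and chance alone gives about 1 in 20. TAC replicate 4 read 12.32 for Cpt2, with the next TAC array at 12.07, and without it Cpt2 differed by -0.77. Sham replicate 5 read 10.50 for Mlycd, with the next sham array at 10.62, and without it Mlycd differed by -0.81.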

How the results depend on the processing

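Mlycd, Cpt2, Acacb and Slc22a5 stayed called and lower under all alternatives of another probe set rule, filter, variance model, array weights or normalization and without any 1 array, with adjusted p-values up to 0.0163. Leaving out arrays gave 4 lower members each time and 4 to 5 lower member probe sets, and 0 higher. Against a 1.2-fold change 2 members and 2 of their probe sets were called lower. Bbox1 ran from -0.014, a reversal, without sham replicate 2 to 0.16 without TAC replicate 4. Acaca minus Acacb fell short with the mean of probe sets (0.13), which adds the dimmer probe sets of Acacb (-0.03) and of Acaca (-0.20). Without single arrays that pair gave 0.38 to 0.48, Acacb minus Mlycd 0.25 to 0.35, Cpt1a minus Cpt2 0.82 to 0.95, Mlycd minus Cpt2 -0.15 to 0.00 and the Cpt1a probe sets 0.25 to 0.33. For the related lists, probe sets below 13 gave 8 lower beta-oxidation genes, with fewer genes tested. With genes brighter than the median, 1 carnitine gene and 0 malonyl-CoA genes were higher and 1 uptake gene was higher, as it was with a trend and robust fitting, array weights and cyclic loess. Array weights and median centring each gave 8 lower PPAR, ERR and PGC-1 regulators. At an adjusted p below 0.01, 2 carnitine and 0 malonyl-CoA genes were lower. Against 1.2-fold, 2 carnitine, 0 malonyl-CoA, 1 AMPK and 3 beta-oxidation genes were lower, and 0 malonyl-CoA and 1 AMPK gene higher. Without single arrays 2 to 5 carnitine genes, 2 to 5 malonyl-CoA genes, 12 to 13 beta-oxidation genes and 5 to 6 regulators were lower, and 0 to 1 uptake genes higher. The cause of these changes was not tested except where named. The labels give no replicate numbers, and those used here follow the order of the samples. No paired analysis was possible because the labels name no pairing of sham and TAC arrays. The pairs with Cpt1b were not run. Faint probe sets limit Bbox1 most.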
